A study of Mus musculus with 13 samples.

Results

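The 34 genes described here are those by which neutrophils and other granulocytes are usually recognised in a tissue. They were followed in 4T1 tumours, which grow from a mouse mammary carcinoma line placed in the mammary gland. The genes were listed by symbol and kept where an annotated probe of an Illumina bead array was detected (detection p-value below 0.05) on at least 1 array. Of the 34, 32 had an annotated probe on each of the 2 platforms used, and Ly6g and Fpr1 were not analysed here. On the larger platform 31 of the 34 were detected, among 12990 genes detected in all, and 27 of them were detected on all 9 arrays. On the smaller platform 28 of the 34 were detected, among 9714 genes, and 20 of them on all 4 arrays. The 31 were 9 surface and receptor genes, 12 granule genes and 10 others. Stfa3 was not detected on either platform, and Elane, Mmp8 and Cebpe were not detected on the smaller one.

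Every host had been injected with ganciclovir (GCV), per the labels. In PDGFRb-TK hosts a thymidine kinase is made under the Pdgfrb promoter, which is used by pericytes and also by some fibroblasts, and GCV kills dividing cells that make it. On the larger platform 3 arrays came from wild-type (WT) hosts given control IgG, 3 from PDGFRb-TK hosts given control IgG and 3 from PDGFRb-TK hosts given an antibody against angiopoietin-2 (anti-Ang2). These are called WT/IgG, TK/IgG and TK/anti-Ang2. On the smaller platform 1 array each came from a tumour with early pericyte ablation, its control, a tumour with late pericyte ablation and its control. The labels enter both controls under the PDGFRb-TK genotype but describe them as WT, and they enter a positive PDGFRb-TK field for every sample, WT included. The labels give no ages and do not say whether replicates were separate animals, so the spread behind each p-value may be technical.

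Between 40.6 and 43.2% of probes were detected on each of the 9 arrays, and between 42.6 and 48.9% on each of the 4. The number of arrays limits the precision. Pdgfrb, whose promoter drives the transgene, read 7.09 ± 0.21 (log2 signal, SD, n = 3) in WT/IgG, 5.99 ± 0.31 (n = 3) in TK/IgG and 6.005 ± 0.45 (n = 3) in TK/anti-Ang2. It was 6.97 in the early control and 7.03 in the early ablation tumour, and 7.45 in the late control and 6.67 in the late ablation tumour. The array least like the rest was TK/anti-Ang2 replicate 2, with a median correlation of 0.941 where the other 8 had 0.973 to 0.981.

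Neutrophils are made in the bone marrow and fill their granules in a fixed order. Primary granules, with Elane, Mpo and Prtn3, are made by early precursors, and secondary and tertiary granules, with Ltf, Camp, Ngp and Mmp8, by later ones. The mature cell enters blood with little granule gene transcription left. It carries receptors such as Cxcr2 and Csf3r and much S100a8 and S100a9 mRNA, whose products pair as calprotectin. 4T1 tumours are known for driving a strong neutrophil response in the mouse.

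The promoters of 5 members are shown. S100a8, S100a9 and Retnlg were at least 2-fold higher in both ablation tumours (S100a8 not with median scaling in the late pair). Ltf and Ngp are later granule genes with other values in the antibody groups. They were not the later granule genes that fell furthest under the antibody. With TK/IgG as the reference, TK/anti-Ang2 differed by -1.25 for Chil3, -1.12 for Camp, -0.94 for Ngp and -0.87 for Ltf. Chil3 and Camp are not shown, and their promoters held neither of the patterns marked below. Each promoter is the 250 bases upstream of the annotated start, 5′ to 3′ on the gene's strand, from RefSeq on GRCm38.p6. Capitals mark TTGCNNAA, a pattern of the kind bound by C/EBP factors, and GAGGAA, the core of sites of the kind bound by PU.1, on either strand. S100a8 lies at chr3:90668821-90669070 (plus strand), S100a9 at chr3:90695722-90695971 (minus strand), Retnlg at chr16:48872358-48872607 (plus strand), Ltf at chr9:111019042-111019291 (plus strand) and Ngp at chr9:110419558-110419807 (plus strand).
S100a8: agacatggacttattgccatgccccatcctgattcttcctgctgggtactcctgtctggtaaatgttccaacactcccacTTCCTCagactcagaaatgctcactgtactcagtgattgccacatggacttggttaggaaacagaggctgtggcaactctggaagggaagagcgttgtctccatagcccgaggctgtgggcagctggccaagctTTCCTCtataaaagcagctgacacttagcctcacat
S100a9: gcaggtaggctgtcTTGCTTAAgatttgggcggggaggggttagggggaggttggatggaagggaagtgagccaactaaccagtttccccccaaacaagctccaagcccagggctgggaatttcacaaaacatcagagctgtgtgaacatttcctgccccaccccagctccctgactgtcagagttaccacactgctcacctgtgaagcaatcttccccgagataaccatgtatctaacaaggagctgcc
Retnlg: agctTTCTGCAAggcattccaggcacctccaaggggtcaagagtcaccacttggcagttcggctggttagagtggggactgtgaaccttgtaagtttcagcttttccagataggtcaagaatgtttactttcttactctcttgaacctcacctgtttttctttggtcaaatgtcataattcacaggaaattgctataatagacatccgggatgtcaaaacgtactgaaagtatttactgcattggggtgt
Ltf: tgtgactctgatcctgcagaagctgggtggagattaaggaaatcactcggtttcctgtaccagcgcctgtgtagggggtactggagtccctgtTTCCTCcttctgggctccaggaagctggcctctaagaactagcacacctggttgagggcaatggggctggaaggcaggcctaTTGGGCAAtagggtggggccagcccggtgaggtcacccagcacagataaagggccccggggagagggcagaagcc
Ngp: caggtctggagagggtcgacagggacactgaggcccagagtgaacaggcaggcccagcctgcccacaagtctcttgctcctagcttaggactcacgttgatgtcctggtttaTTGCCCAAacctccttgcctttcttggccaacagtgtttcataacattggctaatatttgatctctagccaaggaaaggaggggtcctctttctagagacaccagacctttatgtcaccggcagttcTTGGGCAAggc

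S100a8 had 2 matches to GAGGAA, beginning 170 and 36 bases upstream of the start, and none to TTGCNNAA. S100a9 had 1 match to TTGCNNAA, 236 bases upstream, and Retnlg had 1, at 246. Ltf had 1 match to each pattern, and Ngp had 2 to TTGCNNAA, at 138 and 11 bases. Of the 29 members with a promoter in the RefSeq table, 9 held TTGCNNAA and 18 held GAGGAA, against 10.8% and 25.9% of 27025 genes. These 2 patterns were picked for display after 7 had been searched in the same windows on both strands and their shares seen. The other 5 were TTNCNNAA, which includes TTGCNNAA, in 62.1% of members and 40.3% of all genes; TTGCGCAA, in 0 of 29 members and 0.185% of all genes; TTNCGNAA, in 0 of 29 and 2.30%; GGAAGT, in 51.7% and 22.2%; and AGAGGAAGT, which overlaps GAGGAA, in 3.45% and 0.940%. A match is a description of letters, not a binding site.

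S100a8, S100a9, Retnlg, Cxcr2 and Csf3r were above background on all 9 arrays, while Mmp8, a collagenase of later granules, was detected only on TK/IgG replicate 1. In bulk tumour RNA, fewer neutrophils and less RNA per neutrophil cannot be told apart. All values below are log2 signals of the brightest probe of a gene, and levels of different genes are not compared, since probes differ in response.

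Among surface genes, Cxcr2, the receptor for chemokines such as Cxcl1 and Cxcl2, read 5.98, 5.51 and 5.63 in WT/IgG replicates 1 to 3, 7.41, 5.19 and 6.42 in TK/IgG, and 7.25, 7.97 and 5.74 in TK/anti-Ang2. Both PDGFRb-TK groups held arrays above and arrays within or below the WT range, so the groups overlapped. Csf3r, the receptor for granulocyte colony-stimulating factor, read 7.48, 7.14 and 7.40, then 8.05, 6.81 and 8.03, then 7.68, 9.08 and 6.65 in the same order of groups. Clec4d, a C-type lectin receptor of myeloid cells, read 9.76, 8.48 and 8.91 in WT/IgG, 10.28, 9.36 and 9.54 in TK/IgG, and 10.24, 11.03 and 9.29 in TK/anti-Ang2. For these 3 receptors TK/anti-Ang2 replicate 2 was the highest of all 9 arrays.

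Il1r2, a decoy receptor for interleukin-1, read 8.75, 7.77 and 9.03 in WT/IgG, 9.46, 7.46 and 8.38 in TK/IgG, and 9.22, 9.79 and 7.80 in TK/anti-Ang2. Its groups overlapped, and it was lowest on TK/IgG replicate 2 and highest on TK/anti-Ang2 replicate 2. Trem1, an activating receptor, ranged from 6.34 to 7.24 over the 9 arrays, and its relative Trem3 from 6.43 to 7.57. Fpr2, a formyl peptide receptor, ranged from 9.84 to 10.51. Itgam, the integrin chain CD11b, was 6.19 ± 0.50 (SD, n = 3) in WT/IgG, 5.81 ± 0.32 (SD, n = 3) in TK/IgG and 5.73 ± 0.21 (SD, n = 3) in TK/anti-Ang2. Clec4e, another C-type lectin receptor, read 7.12, 6.54 and 5.73 in WT/IgG, 6.41, 6.72 and 6.84 in TK/IgG, and 7.42, 7.23 and 7.12 in TK/anti-Ang2. It was the only surface gene whose TK/anti-Ang2 arrays all lay above those of TK/IgG and of WT/IgG. Of all genes, 2.96% lay higher without overlap against TK/IgG and 5.01% against WT/IgG. The margin over WT/IgG was thin, 7.125 against 7.115. Before correction and normalisation the arrays overlapped, with signals of 238.6 on TK/anti-Ang2 replicate 2, 239.8 on TK/IgG replicate 3 and 250.4 on WT/IgG replicate 1. Itgam, Fpr2, Clec4d and Clec4e are made by macrophages too.

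Of the primary granule genes, Prtn3, a serine protease, read 8.38, 6.69 and 7.38 in WT/IgG, 5.90, 8.51 and 7.33 in TK/IgG, and 7.08, 7.46 and 7.22 in TK/anti-Ang2. Its TK/IgG arrays were ordered opposite to those of S100a8. Elane, neutrophil elastase, was detected on 5 arrays, 3 of them TK/IgG, and ranged from 4.76 to 5.33. Mpo, myeloperoxidase, was detected on 6 arrays and ranged from 4.54 to 6.09.

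Among later granule genes, Ltf, the iron binder lactoferrin, read 8.07, 9.55 and 8.33 in WT/IgG, 9.15, 8.47 and 9.13 in TK/IgG, and 8.72, 8.65 and 6.78 in TK/anti-Ang2. Camp, the antimicrobial cathelicidin, read 6.96, 7.93 and 6.62, then 7.94, 6.44 and 7.81, then 6.26, 6.89 and 5.69. Ngp, neutrophilic granule protein, read 6.60, 6.56 and 6.32, then 7.57, 5.98 and 7.10, then 6.71, 5.85 and 5.26. All 3 were lowest on TK/anti-Ang2 replicate 3, and Ltf was highest on WT/IgG replicate 2. Chil3, a chitinase-like protein that macrophages also make, read 10.14, 7.22 and 10.10 in WT/IgG, 10.07, 8.79 and 9.77 in TK/IgG, and 9.11, 8.09 and 7.68 in TK/anti-Ang2.

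**Figure D1:**
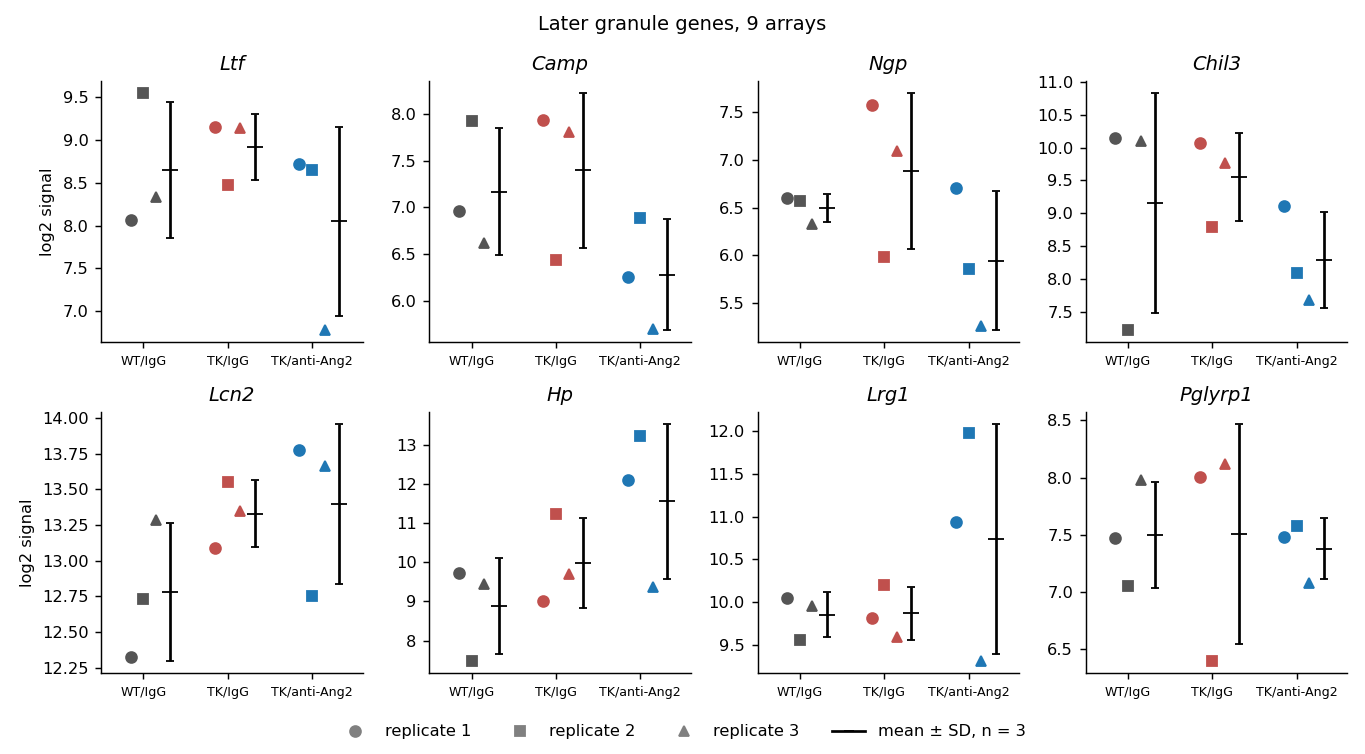
Log2 signal (vertical axis) of 8 later granule genes on each of the 9 arrays by group (horizontal axis), with the replicate given by symbol and the mean ± SD of 3 arrays as a bar. Ltf, Camp, Ngp and Chil3 had their lowest group mean in TK/anti-Ang2, and Hp and Lrg1 their highest, with arrays of TK/anti-Ang2 far apart for Hp (9.37 to 13.22).

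A second set of later granule genes is also made outside granulocytes. Lcn2, a siderophore binder that epithelium secretes too, read 12.32, 12.73 and 13.29 in WT/IgG, 13.09, 13.55 and 13.35 in TK/IgG, and 13.78, 12.75 and 13.67 in TK/anti-Ang2. Hp, the haemoglobin binder haptoglobin, which liver and fat make as well, read 9.71, 7.47 and 9.46 in WT/IgG, 9.0005, 11.24 and 9.70 in TK/IgG, and 12.09, 13.22 and 9.37 in TK/anti-Ang2. Lrg1, a secreted leucine-rich glycoprotein, read 10.05, 9.55 and 9.95, then 9.81, 10.20 and 9.60, then 10.94, 11.97 and 9.31. Pglyrp1, which binds bacterial peptidoglycan, ranged from 6.39 to 8.12.

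S100a8 read 13.24, 12.75 and 12.72 in WT/IgG, 14.15, 12.22 and 13.77 in TK/IgG, and 13.88, 13.91 and 12.33 in TK/anti-Ang2. S100a9 read 12.30, 12.05 and 11.79, then 13.24, 11.05 and 12.88, then 13.06, 13.07 and 11.18. Retnlg, a resistin-like secreted protein of neutrophils in mice, read 9.25, 8.76 and 9.69, then 11.71, 8.25 and 9.98, then 10.77, 10.67 and 8.46. In each PDGFRb-TK group 2 arrays lay above every WT value of S100a8 and S100a9 and the third lay below every one, so the groups overlapped and the WT arrays sat between.

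**Figure D2:**
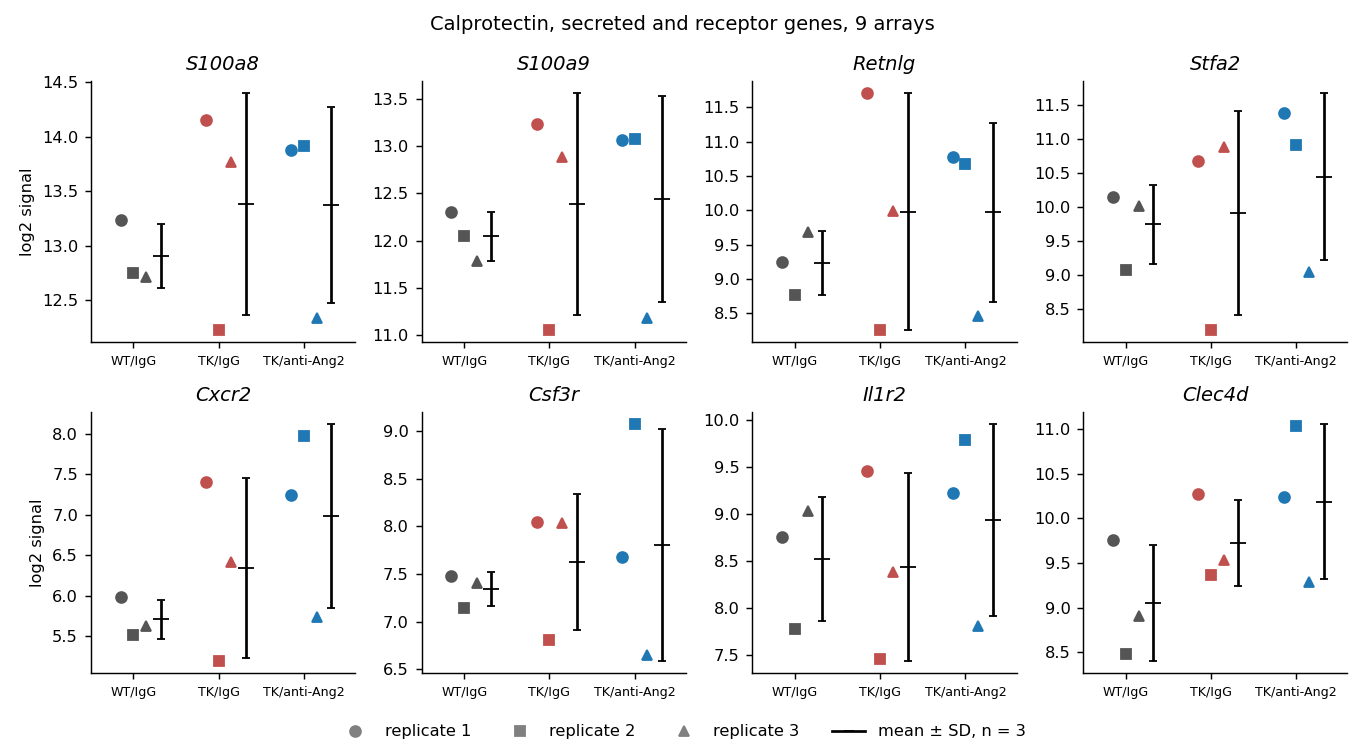
Log2 signal (vertical axis) of 8 calprotectin, secreted and receptor genes on each of the 9 arrays by group (horizontal axis), with the replicate given by symbol and the mean ± SD of 3 arrays as a bar. TK/IgG replicate 2 and TK/anti-Ang2 replicate 3 were the lowest arrays of their groups for all 8 genes, as for S100a8 at 12.22 and 12.33.

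The remaining members are enzymes, inhibitors and a regulator. Arg1, arginase, also a macrophage gene, read 13.13, 12.36 and 12.35 in WT/IgG, 13.24, 13.13 and 12.82 in TK/IgG, and 12.82, 12.55 and 12.65 in TK/anti-Ang2. Il1rn, the interleukin-1 receptor antagonist, read 7.64, 8.04 and 7.16, then 7.90, 7.92 and 8.37, then 8.42, 7.85 and 8.28. Slpi, a protease inhibitor that epithelium also secretes, read 13.11, 13.36 and 12.33, then 12.75, 13.40 and 13.47, then 12.94, 12.43 and 13.23. Their groups overlapped in all 3 comparisons. Stfa2, a stefin that inhibits cysteine proteases, ranged from 8.19 to 11.38, and its reading is uncertain because near-identical stefin genes can bind the same probe. Padi4, which citrullinates histones, ranged from 7.25 to 9.07, and Wfdc21, a small secreted protein, from 5.46 to 7.11. Cebpe, a transcription factor of later granule genes, was detected only on TK/anti-Ang2 replicate 2.

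The spread within groups was wide for these genes. The within-group SD had a median of 0.64 over the 31 members and 0.26 over all 12990 genes, and was 1.28 for Retnlg, 0.94 for S100a9, 0.93 for Cxcr2 and 1.498 for Hp. The order of arrays that S100a8 had was counted over the members. In WT/IgG, 8 of 31, S100a8 included, ran from replicate 1 down to 2 and then 3, against 15.6% of all genes. In TK/IgG, 14 of 31, S100a8 included, ran from replicate 1 down to 3 and then 2, against 15.7% of all genes. In TK/anti-Ang2, 14 of 31, S100a8 included, ran from replicate 2 to 1 to 3, against 18.8% of all genes. S100a8 lay close on WT/IgG replicates 2 and 3 (12.75 and 12.72) and on TK/anti-Ang2 replicates 1 and 2 (13.88 and 13.91). Before correction and normalisation both orders were reversed, with signals of 6554.8 and 7318.4, and of 16893.2 and 14850.7. TK/anti-Ang2 replicate 3 was the lowest of its group for 22 of 31 members and 31.1% of all genes. Other arrays were extremes of their group too. WT/IgG replicate 1 was highest for 20 members (32.2% of all genes) and WT/IgG replicate 2 lowest for 16 (33.7%). TK/anti-Ang2 replicate 2 was highest for 18 (33.7%). TK/IgG replicate 1 was highest for 17 (33.3%) and TK/IgG replicate 2 lowest for 17 (29.1%).

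**Figure D3:**
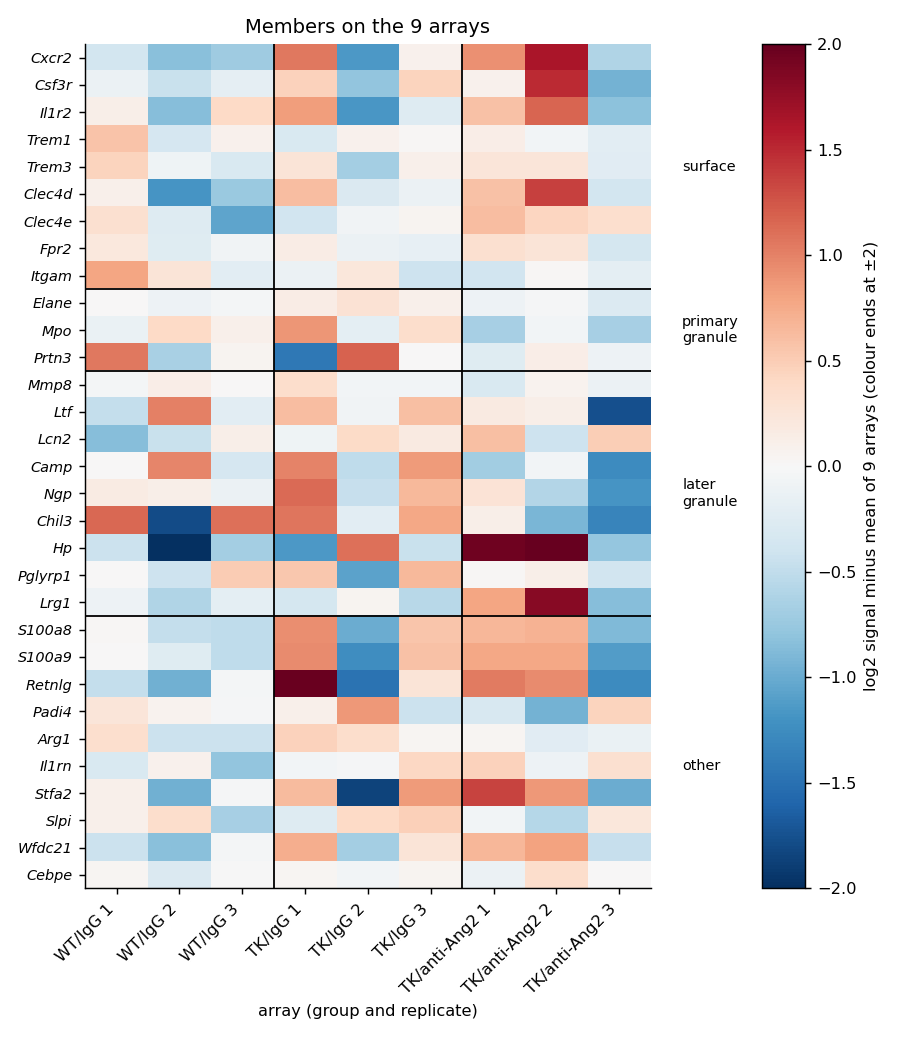
Each of the 31 members (rows, grouped by role) on the 9 arrays (columns), coloured by log2 signal minus the gene's mean over the 9 arrays. TK/anti-Ang2 replicate 3 was lowest of its group for 22 members, and WT/IgG replicate 1 was highest of its group for 20. Prtn3, Padi4 and Lcn2 did not share the pattern of S100a8 in TK/IgG.

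The comparison of TK/IgG with WT/IgG asks what pericyte targeting did under control antibody. None of the 31 members passed limma at an adjusted p of 0.05, and the background was 0% of 12990 genes. At an unadjusted p below 0.05 limma gave 0 members and 388 genes (2.99%). The mean was higher in TK/IgG for 25 of 31 members, against 47.1% of all genes, with a median difference of 0.23 against -0.01. The split was 4 of 9 surface genes, 11 of 12 granule genes and 10 of 10 others. It includes Mmp8, detected only on TK/IgG replicate 1, Elane, detected on 1 of 3 WT/IgG arrays, and Cebpe, detected in neither group. Among genes detected on at least 3 of 9 arrays, 23 of 29 members were higher, with a median of 0.27. These counts follow single arrays: without TK/IgG replicate 1 the mean was higher for 19 of 31, with a median of 0.08, and without replicate 2 for 26, with a median of 0.47.

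The largest difference was that of Hp, 1.10 (SE 0.99, adjusted p = 1 in limma). Retnlg differed by 0.75 (SE 0.85), Clec4d by 0.67 (SE 0.47), Cxcr2 by 0.63 (SE 0.62), S100a8 by 0.48 (SE 0.54) and S100a9 by 0.34 (SE 0.63). The lowest were Itgam at -0.38 (SE 0.27), Prtn3 at -0.24 (SE 0.61) and Trem1 at -0.18 (SE 0.23). Each interval included 0, for S100a8 from -0.74 to 1.70. Single arrays decide these values: without TK/IgG replicate 1 the differences were -0.12 for Retnlg, -0.08 for S100a9, 0.09 for S100a8 and 0.10 for Cxcr2. Without TK/IgG replicate 2 they were 1.61, 1.01, 1.06 and 1.21 in that order, and Hp without WT/IgG replicate 2 was 0.40. Elane was the 1 member whose groups did not overlap (higher, difference 0.22), against 3.53% of all genes. It was detected on 1 of 3 WT/IgG arrays, so its values lie near background. Before correction and normalisation its groups overlapped, with signals of 131.1 on TK/IgG replicate 1 and 136.5 on WT/IgG replicate 1.

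TK/anti-Ang2 against TK/IgG asks what the antibody added in targeted hosts. Again 0 of 31 members passed limma, as did 0% of all genes. The mean was higher in TK/anti-Ang2 for 8 of 9 surface genes, with a median of 0.20, and for 4 of 12 granule genes, with a median of -0.26. The 12 include Mmp8, detected only on TK/IgG replicate 1, and Elane and Mpo, each detected on 1 of 3 TK/anti-Ang2 arrays. Of all genes 47.7% were higher, with a median of -0.01. The median of the 9 later granule genes alone was -0.20. Without TK/anti-Ang2 replicate 2 the surface median was 0.04 and the later granule median -0.30, and without replicate 3 they were 0.66 and -0.20. Without TK/IgG replicate 1 they were 0.38 and -0.07, and without TK/IgG replicate 2 they were 0.08 and -0.68. No test of surface against granule genes was made.

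S100a8 differed by -0.01 (SE 0.54, 95% interval -1.23 to 1.22), S100a9 by 0.05 (SE 0.63) and Retnlg by -0.01 (SE 0.85). Chil3 differed by -1.25 (SE 0.75), Camp by -1.12 (SE 0.48), Ngp by -0.94 (SE 0.44), Ltf by -0.87 (SE 0.55) and Mpo by -0.80 (SE 0.29), each with an adjusted p of 0.987 in limma. At an unadjusted p below 0.05 limma gave 424 genes (3.26%), and the members among them were Mpo, Camp and Elane, all lower, against 1.91% of all genes in that direction. Ltf differed by -0.23 without TK/anti-Ang2 replicate 3 and by -1.21 without replicate 1, and Ngp by -0.60 without TK/IgG replicate 1. Mpo and Elane were each detected on 1 of 3 TK/anti-Ang2 arrays, so their values lie near background. For Camp the values without TK/anti-Ang2 replicate 2 and replicate 3 were -1.42 and -0.82. Hp differed by 1.58 (SE 0.99), and by 0.75 without TK/anti-Ang2 replicate 2. Lrg1 differed by 0.87 (SE 0.55), and by 0.26 without that array. Clec4e was higher on every TK/anti-Ang2 array (0.60, SE 0.31) and Elane lower (-0.32, SE 0.14), against 2.96% and 4.33% of all genes without overlap in those directions.

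**Figure D4:**
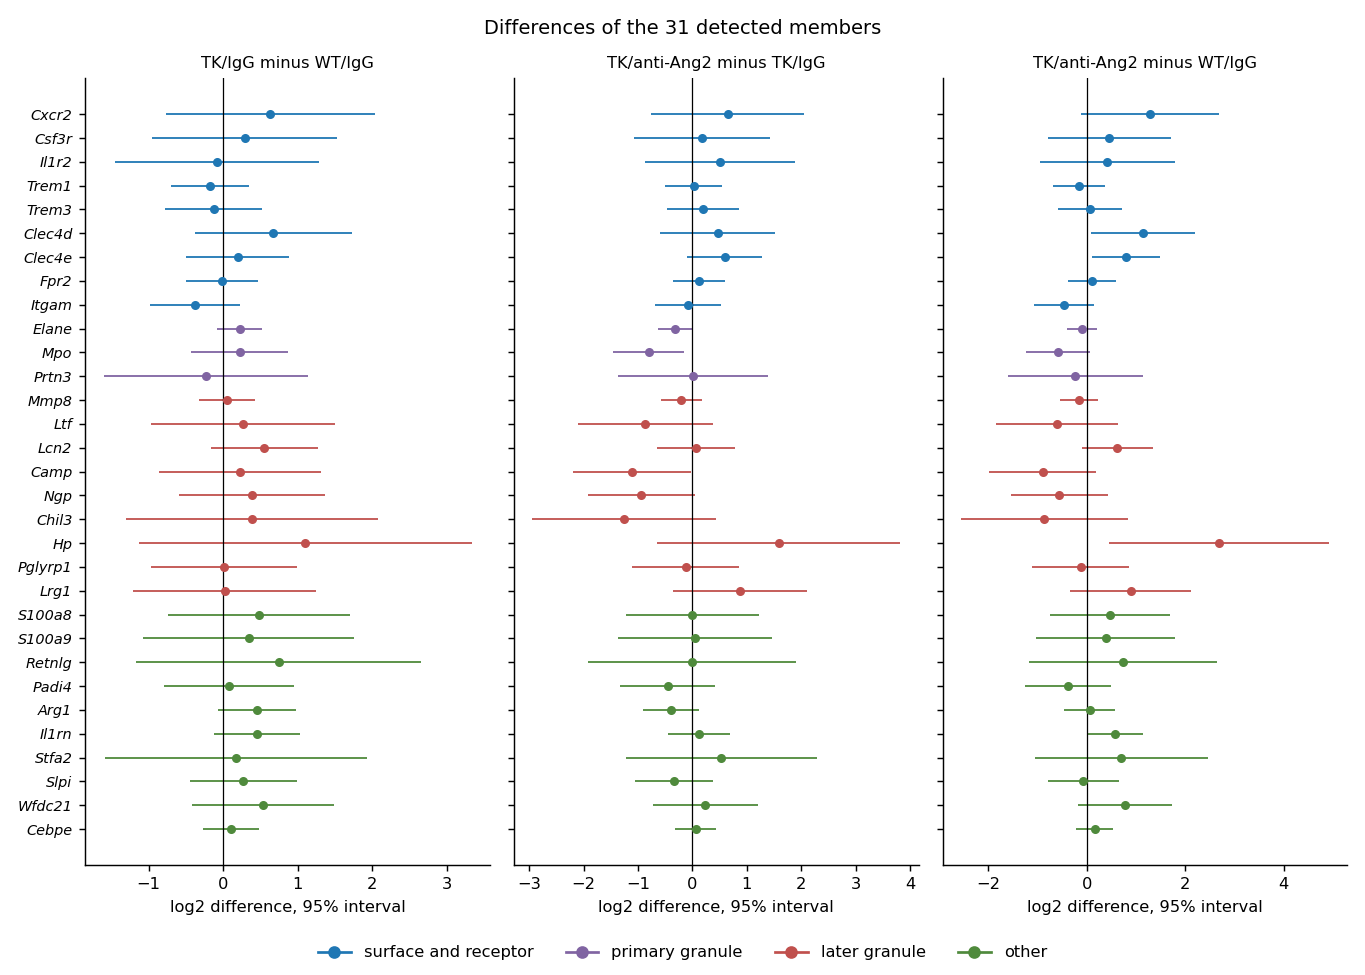
Log2 difference between group means (point) with its 95% interval from limma (line) for each of the 31 members in 3 comparisons, coloured by role. Most intervals include 0; Camp, Mpo and Elane lie below 0 in TK/anti-Ang2 minus TK/IgG, and Hp, Clec4d and Clec4e above 0 in TK/anti-Ang2 minus WT/IgG, before adjustment.

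Red cell genes were read beside the granule genes. Of 10 listed erythroid genes 6 were detected. TK/anti-Ang2 was lower than TK/IgG for all 6, as for 6788 of all 12990 genes, with medians of -1.78 and -0.01. At an unadjusted p below 0.05 limma gave 4 of the 6, against 1.91% of all genes in that direction. Hba-a1, Hbb-b2, Hbb-bs and Hbb-bt are all haemoglobin genes, so the 6 are not independent. The mean log2 signal of the 6 was 8.37, 10.27 and 9.78 in WT/IgG, 10.68, 9.11 and 10.82 in TK/IgG, and 8.68, 9.47 and 7.57 in TK/anti-Ang2. In TK/anti-Ang2 the order of the arrays was that of Camp. In WT/IgG the 6 and Camp were both highest on replicate 2, and in TK/IgG both were lowest on replicate 2. The remaining arrays of those groups were in another order. Ltf shared the order of the 6 in WT/IgG, and not in TK/IgG or TK/anti-Ang2. The part of blood or of immature cells in these values was not tested.

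The third comparison, TK/anti-Ang2 against WT/IgG, shares its arrays with the other 2. No member passed limma (0% of all genes). The mean was higher for 18 of 31 members, against 46.1% of all genes, with a median of 0.11. The 18 include Cebpe, detected only on TK/anti-Ang2 replicate 2. Among genes detected on at least 3 of 9 arrays, 17 of 29 members were higher. Hp differed by 2.68 (SE 0.99, 95% interval 0.45 to 4.92, adjusted p = 0.713 in limma), Cxcr2 by 1.28 (SE 0.62), Clec4d by 1.14 (SE 0.47) and Clec4e by 0.79 (SE 0.31). At an unadjusted p below 0.05 limma gave 887 genes (6.83%), with Hp, Clec4d and Clec4e among them, all higher, against 2.76% of all genes in that direction. Clec4e was the 1 member whose groups did not overlap, against 5.01% of all genes higher without overlap. Its lowest TK/anti-Ang2 array read 7.125 and its highest WT/IgG array 7.115, and the groups overlapped before correction and normalisation. At the low end, Camp differed by -0.89 (SE 0.48), Chil3 by -0.86 (SE 0.75) and Ltf by -0.60 (SE 0.55). Without TK/anti-Ang2 replicate 2, Hp differed by 1.85, Cxcr2 by 0.79 and Clec4d by 0.72.

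Fat cell genes were read beside Hp. Of 12 adipocyte genes, listed after the values of Hp were seen, 8 were detected, and Fabp4, Plin1 and Cd36 were not detected on any of the 9 arrays. All 8 were higher in TK/anti-Ang2 than in WT/IgG, with a median of 1.03, and the summed signal was 593.5 to 954.6 in WT/IgG, 483.2 to 2567 in TK/IgG and 829.4 to 8503 in TK/anti-Ang2. The 3 arrays with the highest Hp were also the 3 with the highest mean adipocyte signal. The part of fat in the reading of Hp was not tested.

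Genes that draw or feed neutrophils were read beside the members. Of 19 listed attractants and growth factors 16 were detected. In TK/IgG against WT/IgG 13 of 16 were higher, with a median of 0.22, and Csf2, a myeloid growth factor, differed by 1.18 (SE 0.34, adjusted p = 1 in limma). In TK/anti-Ang2 against TK/IgG 15 of 16 were higher, with a median of 0.68. In TK/anti-Ang2 against WT/IgG 13 of 16 were higher and 3 lower, with a median of 1.10. Without overlap of arrays 6 were higher, against 5.01% of all genes, and 1 was lower, against 945 of 12990 genes. Cxcl1, a ligand of Cxcr2, differed by 1.95 (SE 0.53, adjusted p = 0.713 in limma) and Cxcl12 by 1.65 (SE 0.37), both among the 6. Macrophage and mast cell lists were highest on TK/anti-Ang2 replicate 2, with mean log2 signals of 10.60 and 9.52. The other 8 arrays gave 9.31 to 9.998 and 5.05 to 7.21. Of 10 listed skin genes 5 were detected, and their mean was 11.14 on that array and at most 8.25 on the other 8. The pericyte and fibroblast list was also highest there, at 9.71 against at most 9.25. So were the attractants and growth factors, at 8.34 against at most 8.16, and the adipocyte genes, at 8.55 against at most 7.34. A list of other neutrophil genes was highest there too, at 9.18 against at most 8.75. The part of that array in the attractant differences was not tested. The red cell, eosinophil and epithelial lists were not. The part of macrophages and mast cells in the readings of shared genes such as Clec4d was not tested. Nor was the part of skin, pericytes and fibroblasts in the readings of TK/anti-Ang2 replicate 2.

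The ablation pairs hold 1 array a group, so no test was possible and the values compare those tumours. In the early pair S100a8 was 10.71 in the control and 13.24 in the ablation tumour, a log2 ratio of 2.53 (5.76-fold). S100a9 was 9.94 and 11.79 (1.85), and Retnlg 7.69 and 9.82 (2.13). In the late pair S100a8 was 10.66 and 11.98 (1.32), S100a9 9.04 and 11.02 (1.98) and Retnlg 7.21 and 8.75 (1.54). These were the 3 of 28 members at least 2-fold higher in both pairs, against 17 of 9714 genes (0.175%). With median scaling in place of quantile normalisation S100a8 was 0.89 in the late pair, under 2-fold, and S100a9 (1.58) and Retnlg (1.19) were the 2 members past it in both. In the early pair the count of members at least 2-fold higher was 3 of 28 (background 0.947%), and in the late pair 5 of 28 (background 0.391%). In the early pair 0 of 28 were at least 2-fold lower (background 0.144%).

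The other 2 members past 2-fold in the late pair were granule genes, Ltf at 7.16 and 8.36 (1.20) and Hp at 8.21 and 9.26 (1.06). In the early pair Ltf was 7.67 and 8.10 (0.44) and Hp 9.27 and 9.18 (-0.09). The 3 detected probes of Hp all gave a higher signal in the late ablation tumour. The 7 detected adipocyte genes had a median ratio of -0.04 in the late pair, with 2 higher.

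Chil3 ran the other way in the late pair. It was 7.53 in the early control and 8.38 in the early ablation tumour (0.85), and 9.56 in the late control and 7.37 in the late ablation tumour (-2.19, 4.57-fold lower). It was the 1 member of 28 at least 2-fold lower there (background 0.669%), and its 3 probes gave ratios of -2.35, -2.19 and -1.04. Of 13 detected macrophage genes 12 were lower in the late pair, with a median of -0.41, and 7 were lower in the early pair, with a median of -0.63, where Chil3 was higher. In the late pair all 10 pericyte and fibroblast genes were lower, with a median of -1.23. Their part in the reading of Chil3 was not tested.

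Receptors gave smaller ratios than S100a8 in both pairs, but some had signals near background. Before correction Cxcr2 read 65.2 to 101.3 and Csf3r 105.2 to 159.7, where the array medians were 73.6 to 97.9. S100a8 read 1601.9 to 10424.2. The part of background in the smaller ratios was not tested. Clec4d was 8.04 and 8.72 (0.68) early and 7.46 and 8.18 (0.73) late. Cxcr2, detected on 2 of the 4 arrays, was 6.08 and 6.57 (0.49) early and 6.29 and 6.68 (0.39) late. Csf3r was 6.91 and 7.06 (0.15) early and 6.88 and 7.39 (0.51) late. Fpr2 was 9.48 and 10.12 (0.64) early and 9.79 and 9.28 (-0.51) late.

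Camp, detected on 2 of the 4 arrays, gave ratios of 0.27 early and -0.29 late, and Ngp 0.38 and -0.02. Lcn2 gave -0.15 early and 0.52 late, Slpi -0.16 and 0.34, Il1rn -0.16 and 0.65, and Arg1 -0.21 and -0.08. Stfa2 gave 0.90 early and 0.78 late, and Prtn3 -0.20 and -0.34. Over all 28 members 14 were higher in both pairs, against 25.7% of all genes, 4 were lower in both (27.1%) and 10 were opposite (47.1%). Taken pair by pair, 19 of 28 were higher early (48.2% of all genes) and 19 of 28 late (50.3%), with median ratios of 0.18 and 0.40.

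**Figure D5:**
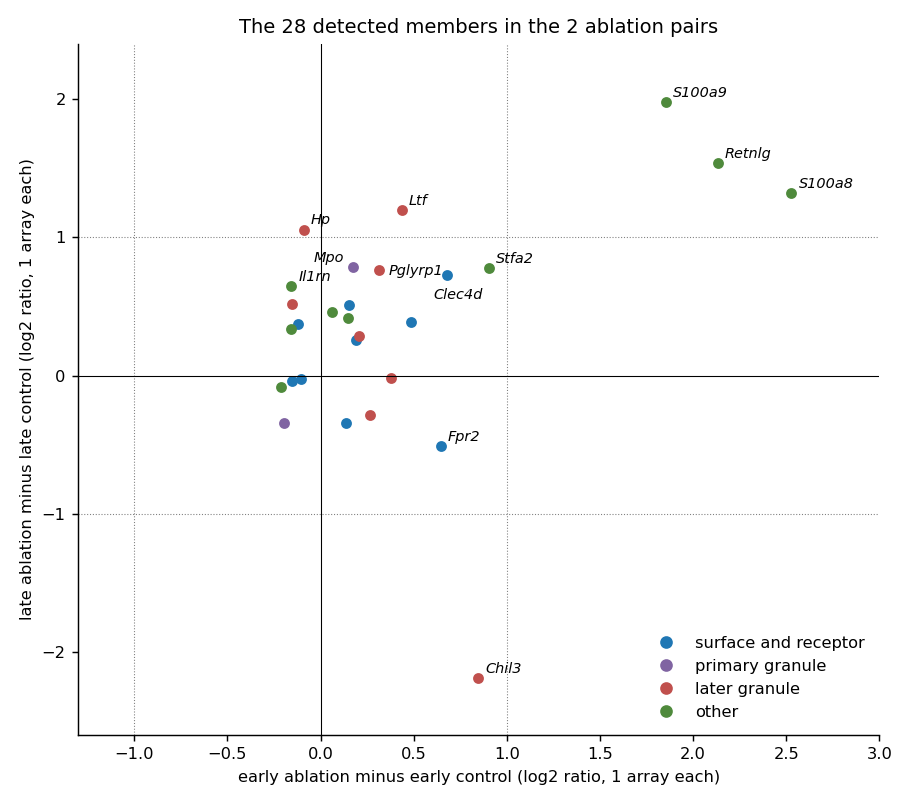
Log2 ratio of ablation to control tumour in the early pair (horizontal axis) and the late pair (vertical axis) for the 28 detected members, 1 array each, coloured by role, with dotted lines at 2-fold. S100a8, S100a9 and Retnlg lie past 2-fold in both pairs (with median scaling S100a8 is at 0.89 late), and Chil3 lies at 0.85 early and -2.19 late.

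Attractant genes were higher beside them, 13 of 14 in each pair, with Cxcl1 at 1.69 early and 2.44 late and Cxcl2 at 1.22 and 1.40. Among 29 other neutrophil genes the median was 0.04 early and -0.03 late, and Stfa1, a stefin near-identical to Stfa2, gave 1.80 and 1.28. Hdc, which makes histamine in neutrophils and mast cells, gave 1.67 and 1.88. All 6 detected mast cell genes were higher in each pair, with medians of 0.61 and 1.11, and their part in the reading of Hdc was not tested.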

How the data were processed

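Biotinylated cRNA from tumour RNA was read on Illumina bead arrays, per the labels' protocols. The deposited tables give a probe intensity, not normalised, and a detection p-value, per the file headers. The submitters' processing notes name GenomeStudio, with no version. The authors' processed intensity values were a linear function of the deposited intensity on each array (largest residual 0.109). A further 6 columns of the 9-array file belong to 3 arrays without a matching label and were left out. The late control's detection column, the 1 unused column of the smaller table, repeats its signal, so a probe counted as detected there within the top 42.6% of signals.

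The 9 arrays were background-corrected and quantile-normalised with neqc (offset 16, limma 3.58.1, R 4.3.3), and the 4 with normexp (offset 50) and quantile. A gene was its brightest probe among those detected on at least 1 array. Symbols came from the platform annotation, updated through gene identifiers to GRCm38.p6 names (34807 of 45281 probes and 23962 of 25697 matched). limma's lmFit and eBayes were fitted over all 9 arrays with Benjamini-Hochberg adjustment at 0.05 over all genes. The fit was tested on simulated data. In the pairs, called means at least 2-fold.

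The members, lists and role groups were chosen with earlier results of these data known, and the adipocyte list was added after values were seen. Per-array values are given for preset members and the 3 largest differences each way in each comparison or pair. Il1r2, Elane, Mpo, Clec4e and Stfa2 were described further after their values were seen. For each other list up to 3 genes with the smallest p, or in the pairs the largest ratio, could be named. Promoters came from RefSeq, with 29 of 34 members matched. Alternatives changed the correction of background, the scaling, the source of values, the filter on detection, the choice of probe, the groups fitted, weights for arrays and a replicate block, and left out each array in turn. Same-numbered arrays correlated at -0.158 to 0.365, over 0.1 in 3 of 9 pairs, so the numbers were not taken as pairing.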

Additional observations from a re-analysis of the deposited data

Results flagged for a closer look

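Chil3, Fpr2 and Camp were higher in the early ablation tumour than in its control and lower in the late one, each by at least 0.25 on the log2 scale, a limit set after the values were seen. The ratios were 0.85 early and -2.19 late for Chil3, 0.64 and -0.51 for Fpr2, and 0.27 and -0.29 for Camp. With 1 array a group the difference between the pairs was not tested. Camp was detected on 2 of the 4 arrays.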

How the results depend on the processing

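No gene was called in any of the 3 comparisons under any alternative, with 1 exception: with array weights 1 gene was called in TK/anti-Ang2 against WT/IgG, and it was not a member. Counts at an unadjusted p below 0.05 moved with the setting, from 388, 424 and 887 in the 3 comparisons to 528, 886 and 1752 with array weights, and to 1147 and 1613 in the last 2 without TK/anti-Ang2 replicate 3. They were 350, 272 and 739 with median scaling, and the lowest with an array left out were 256 (WT/IgG replicate 2 omitted), 310 (TK/IgG replicate 2) and 542 (WT/IgG replicate 3). The replicate numbers were not taken as pairing, though 3 arrays a group are too few to exclude it. With the replicate block the counts were 426, 481 and 948 and the calls 0, 0 and 0. In 8 of 18 comparisons of an array with another group the best match was its own number. Leaving out each array, the members' median ranged from 0.083 to 0.467 in TK/IgG minus WT/IgG, from -0.152 to 0.099 in TK/anti-Ang2 minus TK/IgG and from -0.01 to 0.286 in TK/anti-Ang2 minus WT/IgG. Ltf in the last comparison ranged from -0.935 to 0.038, the last without TK/anti-Ang2 replicate 3. In the pairs, median scaling moved the late median of all genes to -0.21, Arg1 to -0.418 and Fpr2 to -0.822, and the members at least 2-fold higher in the late pair numbered 2 under it and 9 with the authors' processed values, against 5. S100a8 in the late pair was 0.89 with median scaling, under 2-fold. Members near background, such as Elane, Mpo, Mmp8 and Cebpe, have signals too low for a fold change to be read.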
